A study of Homo sapiens with 18 samples.

Results

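T98G cells, a human glioblastoma line, were treated for 2 h with 2-deoxyglucose (2DG, 10 mM in the sample labels) plus phenformin (100 µM), and their RNA was compared with that of cells given DMSO, the solvent, for the same time. The comparison rests on 6 of the 18 samples of the series, with biological replicates A, B and C, as the labels call them, on each side. The other 12 libraries held 2DG alone, phenformin alone, and the stilbene oligomer gnetin H with and without phenformin. Here 2DG is the known glycolysis inhibitor beside gnetin H, and the comparison asks how gene expression responds when it is joined with an inhibitor of mitochondrial respiration. The results text of the study names a higher 2DG dose than its methods and the labels do. T98G is 1 tumour-derived line, and the labels do not say how the replicates were grown. All genes were considered: of 55128 in the deposited table, 12108 reached an FPKM (fragments of a gene scaled by its exon length and by the library's mapped fragments) of at least 0.5 in at least 3 of the 18 libraries and were tested.

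2DG is a glucose analogue that is phosphorylated by hexokinase and then not metabolised further, so it blocks glycolysis. It also interferes with the sugar chains that are added to proteins in the endoplasmic reticulum (ER), where misfolded protein sets off the unfolded protein response. Phenformin is a biguanide that inhibits complex I of the mitochondrial respiratory chain. Cells short of energy or amino acids, or with stressed ER or mitochondria, phosphorylate the initiation factor eIF2α, which slows translation and raises the transcription factor ATF4: this is the integrated stress response, of which GDF15, a secreted stress hormone, DDIT3 (CHOP) and CHAC1 are known targets. Immediate early genes are transcription factor genes that are switched on within minutes without new protein synthesis, and sprouty proteins and dual-specificity phosphatases are feedback inhibitors of growth factor and MAP kinase signalling.

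The 3 libraries of 2DG plus phenformin held 20981672, 21082500 and 21616663 mapped fragments, against 20581884, 19532872 and 20090706 in DMSO, counts that were recovered from the steps of the FPKM values. Of 14 markers of glial and mesenchymal glioblastoma cells, 7 reached the test level, among them VIM, CD44, EGFR and SOX9, while GFAP, S100B and SOX2 were listed at 0 in all 6 libraries. NES, OLIG2, PDGFRA and CHI3L1 stayed under 0.5 FPKM in every library. The summed level of 20 markers of blood, endothelial, epithelial and neural cells was 1.12 to 1.21 FPKM in 2DG plus phenformin and 1.04 to 1.45 FPKM in DMSO. The libraries differed in how the level of a gene depended on its GC content. The slope of the log2 level per 10 GC points, relative to the mean of all libraries, was 0.205, 0.0809 and 0.311 in 2DG plus phenformin, against −0.301, −0.229 and 0.0467 in DMSO, where replicate C stood apart from A and B. This trend and the treatment cannot be told apart by the design, so values after a correction for GC content and transcript length are given beside the main ones.

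After 2DG plus phenformin, 2549 genes rose and 3973 fell (limma, Benjamini-Hochberg adjusted p under 0.05), which is 21.1% and 32.8% of the genes tested. After the GC and length correction 2948 rose (24.3%) and 2480 fell (20.5%), and with median-of-ratios scaling 3370 rose and 2912 fell, so that the excess of falls did not hold under these settings. Of the 2549 rises 1527 were kept after the correction, and of the 3973 falls 1825. Genes were called higher or lower when the fold change was at least 2, the Bonferroni p at most 0.05 and the mean FPKM at least 1 in the higher of both groups. This gave 56 genes called higher (0.463%) and 110 called lower (0.908%), of which 47 and 44 stayed called after the correction. The calls then stood at 62 higher and 58 lower, and at 65 and 83 with median-of-ratios scaling. The excess of lower calls turned round with a pseudocount of 1, which gave 43 higher and 23 lower, and with only the compared groups in the fit, which gave 40 higher and 31 lower. The libraries of both sides did not overlap for any of the called genes, and they did not overlap for 55.3% of all genes tested. FPKM are shares of a library, so a change of total RNA per cell cannot be told apart from these values. The count of genes that rose depended on single libraries: it was 1079 without DMSO replicate A, 1259 without DMSO B, 1167 without combination replicate C and 1597 without combination A, and 3325 without DMSO C.

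**Figure D1:**
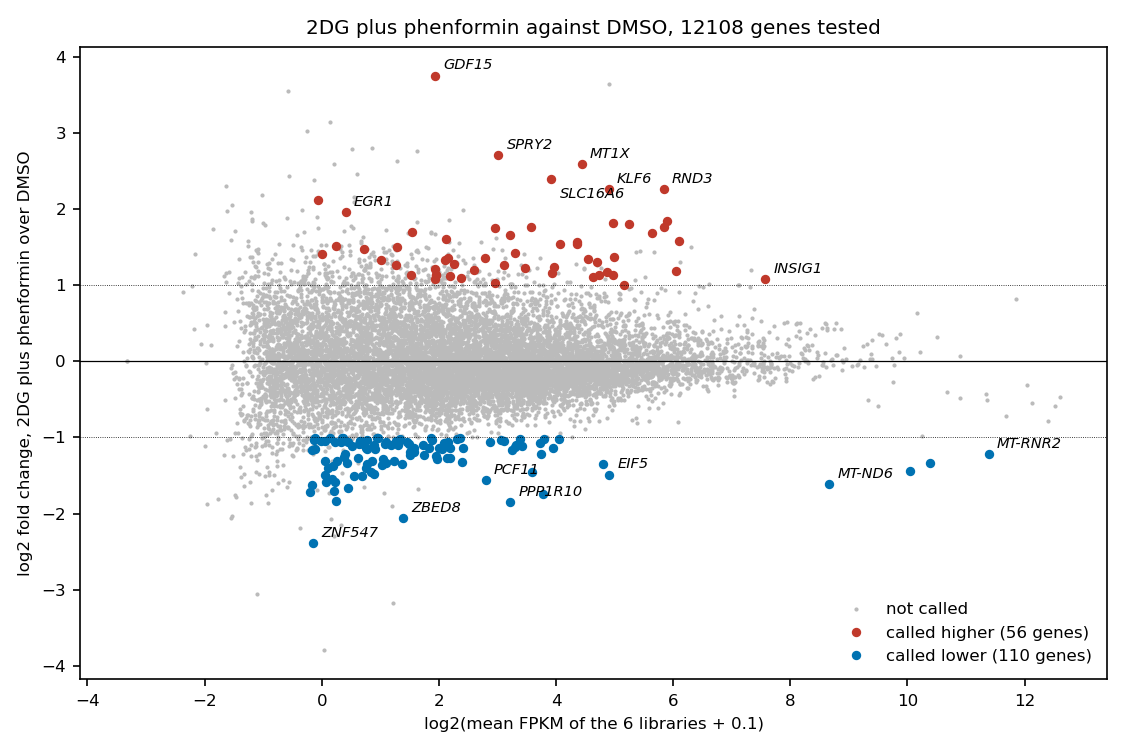
Log2 fold change of 2DG plus phenformin over DMSO (vertical axis) against log2 of the mean FPKM of the 6 libraries plus 0.1 (horizontal axis) for the 12108 genes tested. The 56 genes called higher (red) reach 3.75 at GDF15, the 110 called lower (blue) reach −2.38 at ZNF547, and grey points beyond the dotted lines at a fold change of 2 did not meet the rule for a call.

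GDF15 showed the largest rise of the called genes. It measured 7.51, 6 and 7.38 FPKM in 2DG plus phenformin, against 0.303, 0.393 and 0.6201 FPKM in DMSO, values that stand for 329, 264 and 333 fragments against 13, 16 and 26. The fold change was 13.4 (log2 3.75 ± 0.24, SE; adjusted p = 2.29e-08, log2 3.04 after the correction). GDF15 lies at chr19:18374731-18389176 (GRCh38) on the plus strand. SPRY2, which encodes the feedback inhibitor sprouty 2 (chr13:80335976-80340951), measured 13.7, 14.2 and 13.7 FPKM in 2DG plus phenformin, against 1.92, 2.02 and 2.18 FPKM in DMSO, a rise of 2.71 ± 0.11 on the log2 scale (adjusted p = 2.92e-10). KLF6, a zinc finger transcription factor of the immediate early class (chr10:3775996-3785281), was at 49.1, 49.3 and 49.1 FPKM in 2DG plus phenformin, against 10.3, 9.91 and 10.4 FPKM in DMSO, with little spread between libraries (log2 2.26 ± 0.04; adjusted p = 3.26e-15). SLC16A6, a member of the monocarboxylate transporter family (chr17:68267026-68291267), was at 26.6, 26.4 and 22.99 FPKM in 2DG plus phenformin, against 4.52, 5.09 and 4.61 FPKM in DMSO (log2 2.39 ± 0.06; adjusted p = 5.36e-13). The libraries of both sides did not overlap in these genes, as in all called genes and in 55.3% of all genes tested.

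The other 6 of the 10 largest rises were those of MT1X, RND3, AC012181.2, EGR1, PPP1R15A and BHLHE40. MT1X, a metallothionein that binds zinc and copper, measured 37.8, 30.9 and 41.98 FPKM in 2DG plus phenformin, against 4.33, 5.49 and 9.096 FPKM in DMSO. RND3, an atypical small GTPase that acts on the actin cytoskeleton, measured 93.9, 100.9 and 89.03 FPKM in 2DG plus phenformin, against 20.8, 20.2 and 18.1 FPKM in DMSO. PPP1R15A, also known as GADD34, directs a phosphatase to eIF2α and so reverses the block of translation. It measured 95.6, 86.6 and 97.4 FPKM in 2DG plus phenformin, against 23.1, 25.5 and 29.8 FPKM in DMSO (log2 1.84 ± 0.12; adjusted p = 5.16e-08). BHLHE40, a repressor in the circadian clock, measured 46.9, 49.4 and 49.7 FPKM in 2DG plus phenformin, against 12.6, 13.7 and 15.03 FPKM in DMSO. AC012181.2 lies inside HERPUD1 on the same strand, so that fragments could be shared between them, and its rise of 2.12 stands beside a log2 change of −0.07 in HERPUD1 (adjusted p = 0.234).

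Against 2DG alone, at the same labelled dose and time and in the same model, the combination was higher in 427 genes (3.53%) and lower in 931 (7.69%). GDF15 was higher than in 2DG alone by 1.33 on the log2 scale (adjusted p = 0.0015), with 7.51, 6 and 7.38 FPKM in the combination and 2.33, 2.96 and 2.83 FPKM in 2DG. SPRY2 was higher by 1.49 (adjusted p = 6.75e-07), KLF6 by 1.31 (adjusted p = 4.00e-12) and SLC16A6 by 0.73 (adjusted p = 1.10e-06). EGR1, an early growth response factor, was at 1.96, 2.18 and 1.89 FPKM in the combination, at 0.342, 0.598 and 0.606 FPKM in 2DG alone and at 0.48, 0.506 and 0.349 FPKM in DMSO. The libraries of 2DG alone and of DMSO overlapped, and the combination was higher than 2DG alone by 1.81 (adjusted p = 2.29e-05). Against phenformin alone the combination was higher in 3538 genes (29.2%) and lower in 4380 (36.2%). The slopes with GC content were −0.357, −0.268 and −0.209 in the phenformin libraries, against 0.205, 0.0809 and 0.311 in the combination. Once levels were adjusted for GC content and transcript length, 5962 genes differed from phenformin alone, where 7918 had differed before. Of the 7918, 4105 were kept. How much of this difference goes with GC content was not tested further. GDF15 was higher than in phenformin alone by 4.07 before the adjustment (adjusted p = 1.10e-08).

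**Figure D2:**
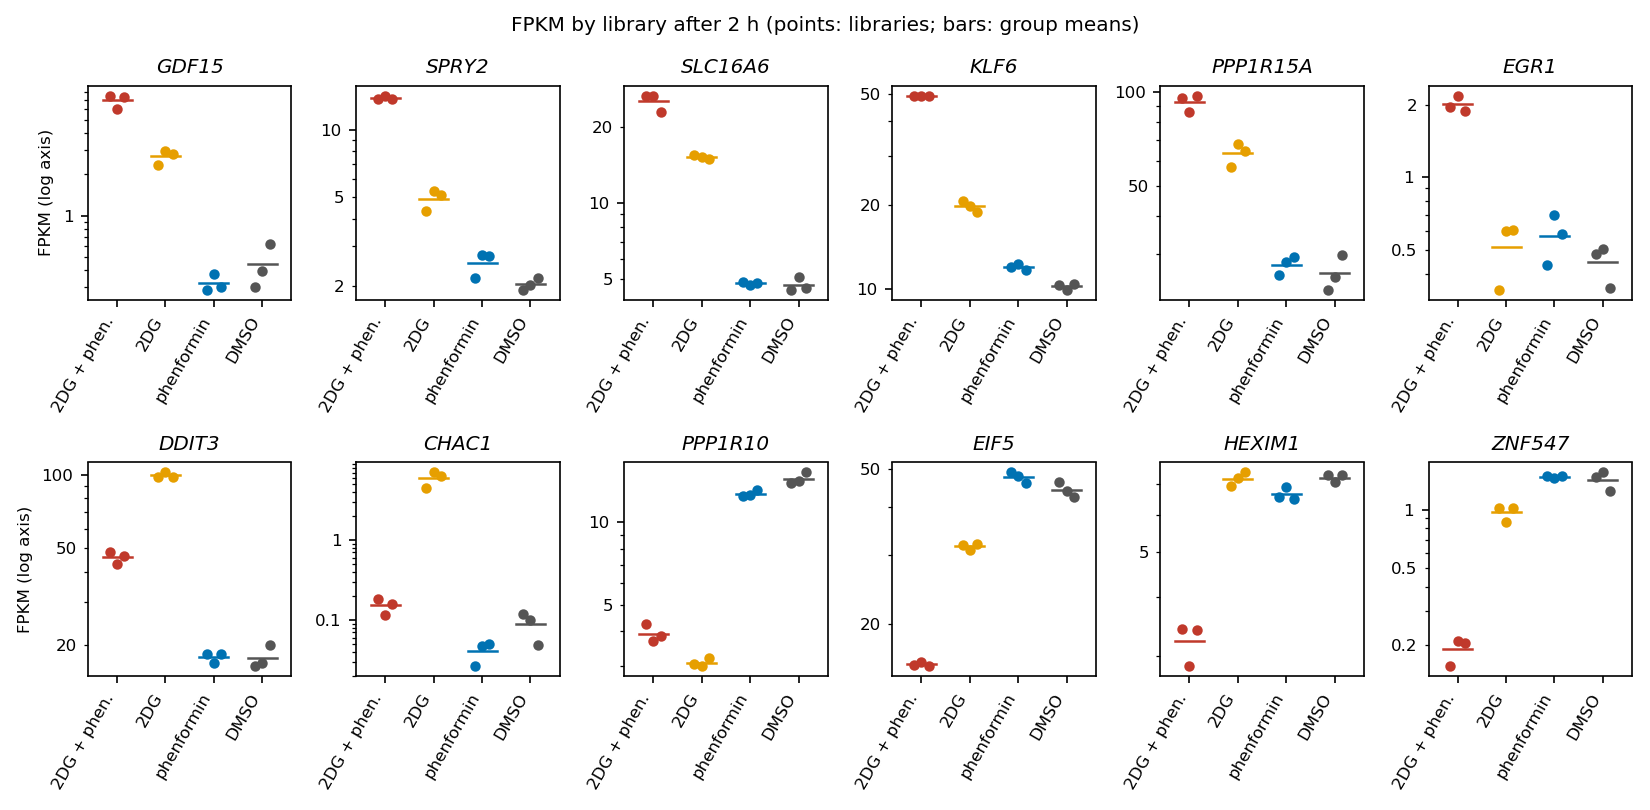
FPKM (log axis) of 12 genes in each of 3 libraries after 2DG plus phenformin, 2DG alone, phenformin alone and DMSO, with points for libraries and bars for group means. GDF15, SPRY2, SLC16A6, KLF6, PPP1R15A and EGR1 are highest in the combination, DDIT3 and CHAC1 are highest in 2DG alone, and EIF5, HEXIM1 and ZNF547 are lowest in the combination, where PPP1R10 is lowest in 2DG alone.

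The bases before the start sites of called genes were read from RefSeq promoter windows on GRCh38.p14, of which the 250 bases before the first listed start were used. Windows were found for 35 of the 56 genes called higher, 78 of the 110 called lower and 8829 of the 12108 tested. Each motif was searched on both strands: the CRE bound by CREB and ATF factors (TGACGTCA), the E-box bound by MYC, MondoA and BHLHE40 among others (CACGTG), the TATA box (TATAAA), the metal response element bound by MTF1 (TGCGCNC or TGCACNC) and an ETS core (CCGGAAG). None of these motifs contains another, though sites can overlap in part. The shares with a match among genes called higher, called lower and all tested were 8.57%, 5.13% and 2.99% for the CRE, 22.9%, 3.85% and 9.28% for the E-box, and 20% (7 of 35), 5.13% and 4.80% for the TATA box. For the metal response element they were 51.4%, 23.1% and 33.7%, and for the ETS core 14.3%, 39.7% and 17.5%. The windows had a median GC content of 68%, 60% and 65.2% in the same order, so the shares do not come from windows of like composition. The AP-1 motif (TGANTCA) matched 3 of 35 windows of genes called higher (8.57%), 4 of 78 of genes called lower and 3.68% of all. A match is a run of letters and not a bound site.

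Windows of 3 genes that rose and 2 that fell are shown because each holds one of these motifs outside the gene's own region in the deposited table. Each holds the 250 bases before the start, less any that fall in that region. Capitals mark the motifs named here, and other matches are left in lower case: metal response elements in MT1X (chr16:56682220-56682423, plus strand), a CRE, an E-box and a TATA box in DUSP1 (chr5:172771196-172771445, minus strand), an E-box in ARRDC4 (chr15:97960453-97960697, plus strand), and ETS cores in ZNF256 (chr19:57947707-57947956, minus strand; 2 overlapping matches on opposite strands) and PARS2 (chr1:54764524-54764773, minus strand). DUSP1, ZNF256 and PARS2 were chosen after their values were seen.
MT1X: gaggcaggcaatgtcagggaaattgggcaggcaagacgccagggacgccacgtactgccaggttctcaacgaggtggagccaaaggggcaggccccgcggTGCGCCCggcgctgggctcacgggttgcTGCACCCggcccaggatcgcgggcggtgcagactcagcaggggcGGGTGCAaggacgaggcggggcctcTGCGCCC
DUSP1: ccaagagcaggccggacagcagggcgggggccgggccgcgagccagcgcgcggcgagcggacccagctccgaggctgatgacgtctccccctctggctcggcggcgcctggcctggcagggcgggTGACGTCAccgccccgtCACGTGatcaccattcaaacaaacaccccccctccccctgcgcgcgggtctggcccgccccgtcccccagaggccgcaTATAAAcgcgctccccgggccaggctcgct
ARRDC4: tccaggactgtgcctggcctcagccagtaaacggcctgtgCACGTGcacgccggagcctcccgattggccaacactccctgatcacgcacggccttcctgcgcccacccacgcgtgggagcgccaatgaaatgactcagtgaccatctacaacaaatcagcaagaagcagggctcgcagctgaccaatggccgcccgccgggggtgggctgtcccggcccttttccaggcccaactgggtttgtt
ZNF256: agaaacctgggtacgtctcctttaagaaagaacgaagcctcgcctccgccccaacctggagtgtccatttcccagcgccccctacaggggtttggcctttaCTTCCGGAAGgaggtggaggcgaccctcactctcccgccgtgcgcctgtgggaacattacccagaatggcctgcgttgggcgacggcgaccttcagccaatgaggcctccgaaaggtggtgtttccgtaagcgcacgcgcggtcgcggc
PARS2: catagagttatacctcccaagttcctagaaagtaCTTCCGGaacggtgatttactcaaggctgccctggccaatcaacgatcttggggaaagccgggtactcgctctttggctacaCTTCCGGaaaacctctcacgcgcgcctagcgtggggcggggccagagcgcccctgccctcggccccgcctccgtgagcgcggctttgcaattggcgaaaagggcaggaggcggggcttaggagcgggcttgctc
MT1X was at 37.8, 30.9 and 41.98 FPKM in 2DG plus phenformin, against 4.33, 5.49 and 9.096 FPKM in DMSO, and its 4 metal response matches begin 150, 122, 78 and 53 bases before the start. Metallothionein genes are near copies of each other, so fragments may be split between them. The list it belongs to did not move as one: of 13 tested genes of metallothioneins and zinc transport, 6 rose and 6 fell (7 and 3 after the correction). The falls included the zinc transporter SLC30A6 (−0.63) and MTF1 itself (−0.46).

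Of 30 tested immediate early transcription factors 24 rose and 0 fell, with a median log2 fold change of 0.90 against −0.05 over all genes tested (22 rose and 2 fell with a median of 0.56 after the correction), and 11 were called higher. Over all genes tested 0.463% were called higher, 21.1% rose and 32.8% fell. Beside KLF6 and BHLHE40 the smallest p was that of SNAI2, the repressor Slug of epithelial genes, at 77.3, 77.3 and 73.8 FPKM in 2DG plus phenformin, against 24.8, 23.2 and 22.6 FPKM in DMSO (log2 1.69 ± 0.05; adjusted p = 3.77e-12). JUN, a subunit of AP-1, was at 25.1, 24.2 and 25.5 FPKM in 2DG plus phenformin, against 7.51, 8.52 and 9.66 FPKM in DMSO, and MYC, a driver of growth genes, at 29.9, 28.9 and 32.3 FPKM, against 9.28, 10.1 and 11.8 FPKM in DMSO. JUN and MYC were chosen after their values were seen. The study's blots showed less c-myc protein after 2DG plus phenformin, so the rise of MYC is one of RNA only. Against 2DG alone 12 of the 30 members were higher and 5 lower in the combination, beside 3.53% and 7.69% of all genes tested.

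Genes listed as feedback inhibitors and outputs of ERK signalling rose with them at the RNA level. The study's blots showed less phosphorylated ERK after 2DG plus phenformin, and these RNA values do not measure ERK activity. Of 21 tested members 15 rose and 1 fell, with a median of 0.997 (15 and 0, median 0.76, after the correction), and 9 were called higher. The share called higher was 0.463% over all genes tested, of which 21.1% rose and 32.8% fell. DUSP10, a phosphatase of JNK and p38, was at 106, 105 and 99.2 FPKM in 2DG plus phenformin, against 33.8, 33.6 and 35.97 FPKM in DMSO (log2 1.58 ± 0.04; adjusted p = 5.36e-13). PHLDA1, a pleckstrin homology domain protein, was at 92.7, 92.5 and 90.8 FPKM in 2DG plus phenformin, against 41.5, 41.7 and 38.2 FPKM in DMSO. DUSP1, a nuclear MAP kinase phosphatase, was at 11.97, 11.8 and 11.98 FPKM in 2DG plus phenformin, against 3.03, 3.63 and 3.77 FPKM in DMSO. In 11 of the 21 genes the combination was higher than 2DG alone, and in 0 it was lower, beside 3.53% and 7.69% of all genes tested.

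Secreted cytokines and growth factors followed the same direction: 15 of 21 tested members rose and 0 fell, with a median of 0.76 (16 and 2, median 0.58, after the correction). ADM, the vasodilator peptide adrenomedullin, was at 87.1, 83.1 and 94.4 FPKM in 2DG plus phenformin, against 24.2, 24.1 and 29.9 FPKM in DMSO (log2 1.76 ± 0.10; adjusted p = 1.22e-08). The neurotrophin gene BDNF was at 4.06, 3.597 and 3.93 FPKM in 2DG plus phenformin, against 1.77, 1.65 and 1.69 FPKM in DMSO. CXCL8, the chemokine interleukin 8, rose by 2.15 ± 0.31 but stayed outside the calls (2.05, 2.61 and 2.14 FPKM in 2DG plus phenformin, against 0.662, 0.405 and 0.284 FPKM in DMSO). It was chosen after its values were seen. GDF15 counts here as well as in the integrated stress response. Of 19 genes of NF-kB feedback, 7 rose and 2 fell (7 and 3 after the correction). The shares over all genes tested were 21.1% for rises and 32.8% for falls. NFKBIA, the inhibitor IκBα, rose by 0.58 and TNFAIP3, the inhibitor A20, by 0.83, while the deubiquitinase CYLD fell by 0.35, a fall that did not pass after the correction (−0.10; adjusted p = 0.0782).

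Of 22 targets of YAP and SRF 15 rose and 1 fell (15 and 3 after the correction), with a median of 0.36. Rises and falls made up 21.1% and 32.8% of all genes tested. CTGF was at 37.7, 38.4 and 35.2 FPKM in 2DG plus phenformin, against 14.9, 14.99 and 15.1 FPKM in DMSO. CYR61, its close relative among matricellular proteins and likewise a classical YAP target, was the member that fell, at 29.3, 29.04 and 28.6 FPKM in 2DG plus phenformin, against 48.8, 46.7 and 52.8 FPKM in DMSO (log2 −0.77 ± 0.06; adjusted p = 2.56e-07). The pair thus moved apart in every library. ACTG1, cytoplasmic gamma actin, rose by 0.43. Of 18 small GTPases and their regulators 10 rose and 3 fell, among the first RND3 and GEM (1.10), which inhibits calcium channels. Of 20 genes of TGF-beta and BMP feedback 9 rose and 3 fell (11 and 7 after the correction): the co-repressor TGIF1 rose by 1.33 and ID2 by 0.54, and the pseudoreceptor BAMBI fell by 0.55.

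The integrated stress response moved in part. Of 39 tested targets 15 rose and 9 fell, with a median of 0.21 (15 and 6, median 0.08, after the correction), and 4 were called higher. Among all genes tested 0.463% were called higher, 21.1% rose and 32.8% fell. DDIT3 (CHOP), a transcription factor of the late stress response, was at 48.1, 43.01 and 46.5 FPKM in 2DG plus phenformin, against 16.3, 16.8 and 19.9 FPKM in DMSO (log2 1.37 ± 0.07; adjusted p = 4.27e-09). ATF4 rose by 0.60, with 140.6, 134 and 134 FPKM in 2DG plus phenformin, against 88.8, 86.02 and 94.8 FPKM in DMSO. Other known targets did not follow. CHAC1, which degrades glutathione, measured 0.185, 0.115 and 0.157 FPKM in 2DG plus phenformin, from 8, 5 and 7 fragments, against 0.118, 0.0995 and 0.0484 FPKM in DMSO, from 5, 4 and 2 fragments, and its libraries overlapped (adjusted p = 0.167). SESN2, an inhibitor of mTORC1, was at 1.22, 0.948 and 1.18 FPKM in 2DG plus phenformin, against 1.28, 1.36 and 1.701 FPKM in DMSO, and the groups did not overlap (log2 −0.35 ± 0.17; adjusted p = 0.0933), and it passed as a fall after the correction (−0.79; adjusted p = 4.56e-07). TRIB3, a pseudokinase of the stress response, was at 6.43, 5.68 and 6.103 FPKM in 2DG plus phenformin, against 4.91, 5.203 and 5.91 FPKM in DMSO, and the groups overlapped (adjusted p = 0.0979), with the opposite sign after the correction (−0.37; adjusted p = 0.0126). ATF4, CHAC1, SESN2 and TRIB3 were chosen after their values were seen.

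Several of these targets were far below their level in 2DG alone. CHAC1 was at 4.498, 7.07 and 6.39 FPKM in 2DG alone, and the log2 difference of the combination from it was −4.58 (adjusted p = 2.54e-08). The difference was −2.15 for SESN2 (adjusted p = 1.03e-06), −1.11 for DDIT3 (adjusted p = 1.27e-07) and −0.61 for TRIB3 (adjusted p = 0.000366). In all, 12 of the 39 targets were lower in the combination than in 2DG alone and 2 were higher, against a share of 7.69% and 3.53% of all genes. GDF15 and PPP1R15A were the members that went the other way, PPP1R15A by 0.56 (adjusted p = 0.00805).

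Of 29 tested ER chaperones and targets of the unfolded protein response 7 rose and 6 fell, with a median of −0.05 (11 and 4, median 0.11, after the correction), where all genes tested had 21.1% rises, 32.8% falls and the same median. The members with the smallest p were falls in the machinery that removes misfolded protein from the ER: DERL1 (−0.53), EDEM1 (−0.35) and DERL2 (−0.32), of which DERL2 did not pass after the correction. HSPA5, the ER chaperone BiP, was at 200.2, 200.3 and 188 FPKM in 2DG plus phenformin, against 178, 178 and 166 FPKM in DMSO, a rise of 0.17 ± 0.05 (adjusted p = 0.0128). HSPA5 stood at 422, 398 and 402 FPKM in 2DG alone, and the combination differed from it by −1.05 (adjusted p = 6.8e-09). HERPUD1, a member of the ER degradation complex, differed from 2DG alone by −2.07 (adjusted p = 1.24e-12). HSPA5 and HERPUD1 were chosen after their values were seen. Of the 29 genes 10 were lower and 0 higher in the combination than in 2DG alone, beside 7.69% and 3.53% of all genes tested. Cytosolic chaperones showed 5 rises and 7 falls among 21 (9 and 4 after the correction): FKBP4 rose by 0.33, and the falls of DNAJA1 (−0.30) and DNAJB4 (−0.44) did not pass after the correction. Before the correction the counts of cytosolic chaperones lay near the 21.1% and 32.8% of all genes tested and are no result about that list.

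**Figure D3:**
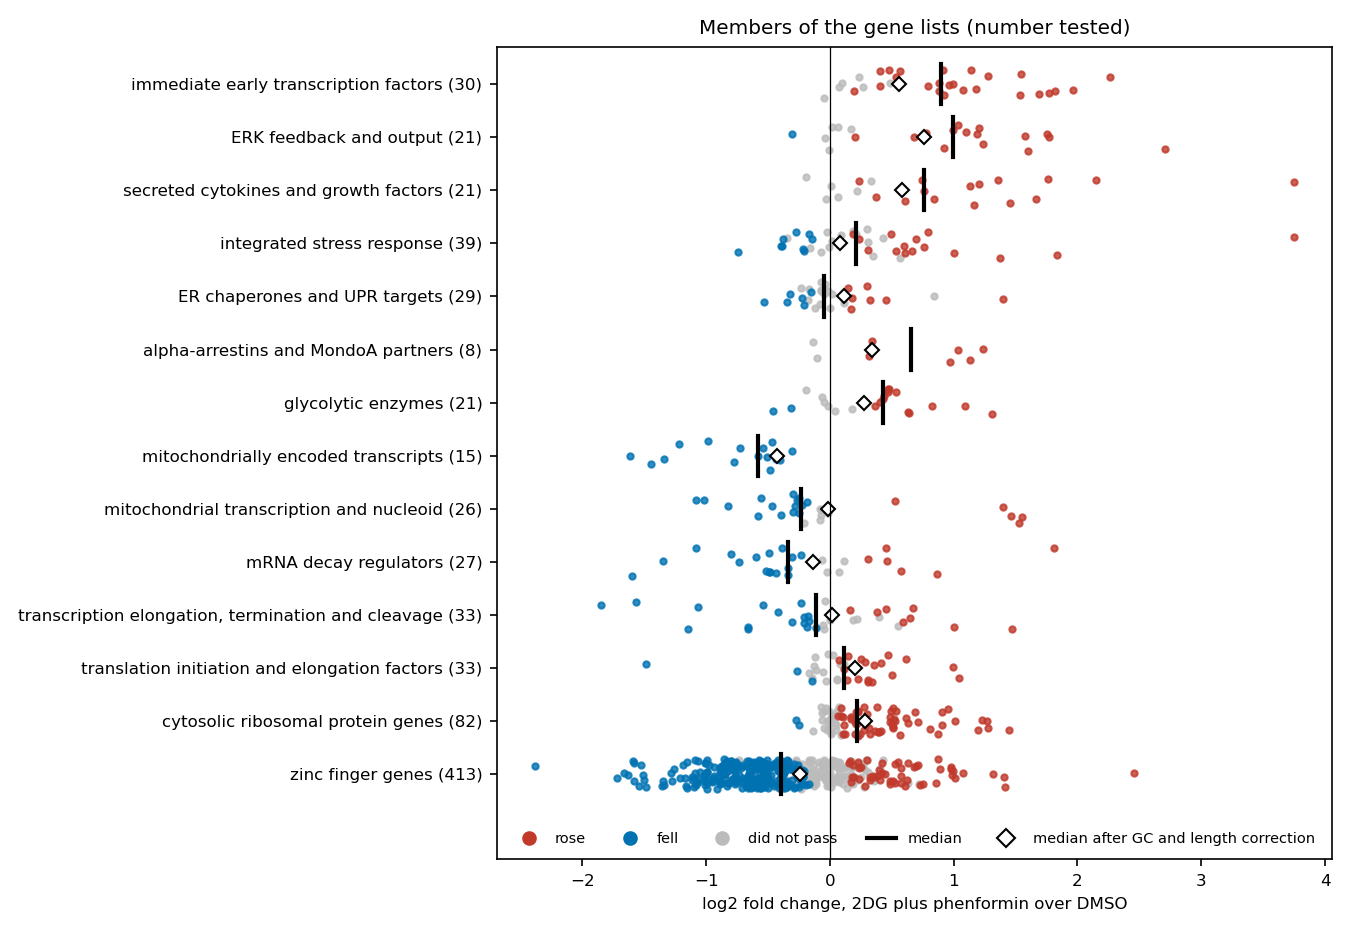
Log2 fold change of 2DG plus phenformin over DMSO for each tested member of 14 gene lists, with red for members that rose, blue for members that fell and grey for those that did not pass; black bars are medians and diamonds medians after the GC and length correction. The medians lie between 0.997 in ERK feedback and −0.58 in mitochondrially encoded transcripts, and those of ER chaperones, mitochondrial transcription and transcription elongation move close to or across 0 with the correction.

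Of 8 tested alpha-arrestins and partners of MondoA, the transcription factor that senses glucose 6-phosphate, 6 rose and 0 fell (5 and 1 after the correction). Among all genes tested the shares were 21.1% and 32.8%. TXNIP, which inhibits thioredoxin and glucose uptake, was at 216, 216 and 199.7 FPKM in 2DG plus phenformin, against 109, 108 and 104 FPKM in DMSO (log2 0.97 ± 0.05; adjusted p = 1.16e-09). It was at 41.6, 42.2 and 41.5 FPKM in phenformin alone and at 235, 224 and 229 FPKM in 2DG alone, from which the difference of −0.12 did not pass (limma, adjusted p = 0.109). These are RNA values. The study's densitometry of blots gave less TXNIP protein after 2DG plus phenformin than in its control, the opposite direction. ARRDC4 was at 22.1, 22.4 and 21.01 FPKM in 2DG plus phenformin, against 9.83, 9.19 and 8.59 FPKM in DMSO, and its difference from 2DG alone was −0.39 (adjusted p = 0.00116). ARRDC3 was at 42.9, 45.8 and 40.6 FPKM in 2DG plus phenformin, against 20.4, 20.6 and 18.01 FPKM in DMSO, and higher than in 2DG alone by 0.84 (adjusted p = 1.63e-06). The list holds genes that the study picked from these libraries.

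Of 21 tested glycolytic enzymes 13 rose and 2 fell, with a median of 0.43 (15 and 2, median 0.28, after the correction). HK2, a hexokinase, was at 46.5, 44.9 and 47.2 FPKM in 2DG plus phenformin, against 28.5, 29.3 and 31.3 FPKM in DMSO (log2 0.64 ± 0.05). PFKFB3, which makes the activator of phosphofructokinase, rose by 0.82, and TIGAR, which breaks that activator down, fell by 0.46. Transporters of glucose and monocarboxylates showed 5 rises and 9 falls among 17 (4 and 5 after the correction). As shares of all genes tested, rises were 21.1% and falls 32.8%. SLC2A3, the glucose transporter GLUT3, was at 14.4, 14.6 and 13.6 FPKM in 2DG plus phenformin, against 5.17, 5.36 and 5.16 FPKM in DMSO (log2 1.42 ± 0.04; adjusted p = 4.35e-12), whereas SLC2A12 (GLUT12) fell by 1.06.

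The mitochondrially encoded transcripts fell. They took 3.69%, 3.08% and 3.13% of the mapped fragments in 2DG plus phenformin, against 5.71%, 5.34% and 4.81% in DMSO, and the groups did not overlap (difference −1.98 points; exact two-sided permutation p = 0.1, the smallest that 3 against 3 allows). All 15 genes of the list fell, with a median of −0.58, and 13 of the 15 fell after the correction. The size of the fall varied along the map. MT-RNR1 (chrMT:648-1601), the 12S ribosomal RNA and first in the order of transcription, changed by −1.44 on the log2 scale, MT-RNR2 (16S) by −1.22, MT-ND1 by −0.98, MT-ND2 by −0.72 and MT-CO1 by −0.58. The next genes lay between −0.78 for MT-CO3 and −0.31 for MT-ND4, which was at 4170, 3624 and 3554 FPKM in 2DG plus phenformin, against 5109, 4698 and 4222 FPKM in DMSO. MT-ND5, the next gene of the list, departed from this order with a fall of −1.34 ± 0.06 (adjusted p = 1.47e-09), with 816, 720.4 and 722 FPKM in 2DG plus phenformin, against 2034, 1939 and 1753 FPKM in DMSO. The largest fall was that of MT-ND6 (chrMT:14149-14673), the gene of the list on the other strand, at 182, 220.7 and 197 FPKM in 2DG plus phenformin, against 674, 610.3 and 555 FPKM in DMSO (log2 −1.62 ± 0.10; adjusted p = 1.44e-08). MT-CYB, the last in map order, fell by 0.48. MT-RNR1, MT-RNR2 and MT-ND4 are shown in the text for their place on the map, a choice made after their values were seen. The libraries were made from polyadenylated RNA, and the mitochondrial ribosomal RNAs and MT-ND6 are known to carry short or no tails, so abundance and tail length cannot be told apart here.

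In 13 of the 15 genes the combination was also lower than 2DG alone, as in MT-ND5 (−1.08; adjusted p = 4.91e-08) and MT-RNR1 (−0.96; adjusted p = 3.65e-06). Over all genes tested 7.69% were lower than in 2DG alone. The differences of MT-ND3 (−0.24) and MT-ND4 (−0.18) from 2DG alone did not pass (adjusted p = 0.14 and 0.139). Nuclear genes of mitochondrial transcription and nucleoids showed 5 rises and 15 falls among 26 (8 and 7 after the correction). FASTKD5, which processes mitochondrial RNA, was at 10.7, 11.2 and 10.5 FPKM in 2DG plus phenformin, against 22.8, 21.7 and 21.5 FPKM in DMSO, and the transcription factors MTERF1 (−0.82) and TFB2M (−0.58) fell. Among 36 subunits of complex I with nuclear genes 9 rose and 9 fell, with a median of 0.05 (14 and 4 after the correction), counts that before the correction were close to the 21.1% and 32.8% of all genes and say nothing particular of complex I. The named falls of NDUFC2 (−0.41), NDUFS1 (−0.22) and NDUFA5 (−0.35) did not pass after it.

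**Figure D4:**
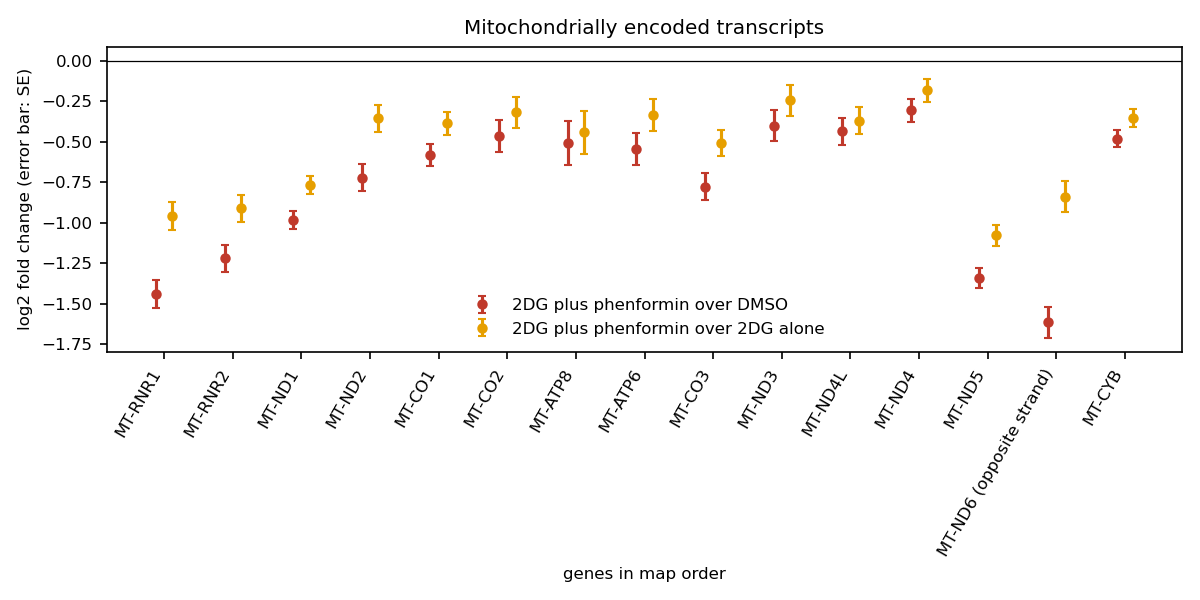
Log2 fold change with its SE for the 15 mitochondrially encoded transcripts in map order, for 2DG plus phenformin over DMSO (red) and over 2DG alone (orange). The falls over DMSO broadly shrink between MT-RNR1 (−1.44) and MT-ND4 (−0.31), with MT-CO3 lower than its neighbours, and are large again at MT-ND5 (−1.34) and at MT-ND6 (−1.62), on the opposite strand.

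The 10 largest falls among the called genes were those of ZNF547, ZBED8, PPP1R10, BCDIN3D, PI15, ZNF658, PSMD6-AS2, ZNF607, ZNF132 and MT-ND6. ZNF547 (chr19:57363477-57379565) was at 0.156, 0.212 and 0.207 FPKM in 2DG plus phenformin, against 1.46, 1.56 and 1.25 FPKM in DMSO, or 11, 15 and 15 fragments against 101, 102 and 84 (log2 −2.38 ± 0.16; adjusted p = 5.82e-08). ZBED8, derived from a DNA transposon, was at 0.733, 1.103 and 0.917 FPKM in 2DG plus phenformin, against 4.24, 4.66 and 3.49 FPKM in DMSO. BCDIN3D, an RNA methyltransferase, was at 0.384, 0.395 and 0.472 FPKM in 2DG plus phenformin, against 1.55, 1.84 and 1.86 FPKM in DMSO. The secreted peptidase inhibitor gene PI15 was at 7.16, 6.18 and 5.38 FPKM in 2DG plus phenformin, against 21.5, 24.1 and 17.8 FPKM in DMSO. The libraries of both sides did not overlap for these 4 genes, which the choice of the largest falls required. The same held for 55.3% of all genes tested.

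Zinc finger genes, many of which encode KRAB repressors and lie in clusters on chromosome 19, mostly fell. Of 413 tested genes named ZNF with a number 250 fell and 52 rose, with a median of −0.40 against −0.05 over all genes (200 and 60, median −0.24, after the correction), 32 were called lower and 1, ZNF460, higher. Over all genes tested 0.908% were called lower and 0.463% higher, while 32.8% fell and 21.1% rose. ZNF607 was at 0.588, 0.491 and 0.591 FPKM in 2DG plus phenformin, against 2.01, 2.098 and 1.83 FPKM in DMSO, and ZNF28 at 1.68, 1.73 and 1.75 FPKM, against 4.26, 4.23 and 3.67 FPKM in DMSO. ZNF281 fell by 0.85, while ZNF697 rose by 0.87 and ZNF609 by 0.42. ZNF460 was at 1.305, 1.35 and 1.399 FPKM in 2DG plus phenformin, against 0.416, 0.482 and 0.4402 FPKM in DMSO (log2 1.41 ± 0.11). In 131 of the 413 genes the combination was lower than 2DG alone and in 5 higher, with differences of −1.87 in ZNF547 (adjusted p = 2.57e-06) and −1.36 in ZNF607 (adjusted p = 2.38e-06). Of all genes tested 7.69% were lower than in 2DG alone and 3.53% higher. Members of this family have near copies that can share fragments, so single values carry that uncertainty.

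Chromosome 19 held 29 of the 110 genes called lower (26.4%, against 6.90% of all genes tested), 49 had at most 4 exons in any annotated transcript (44.5% against 20.2%), and the median GC content was 41.4% against 47.1%. Of the 56 genes called higher 38 had at most 4 exons (67.9%), 3 lay on chromosome 19 and the median GC content was 50.4%. Their median gene span was 7.81 kb, against 16.6 kb for genes called lower and 30.03 kb for all tested. These are descriptions of lists that the calls chose.

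Of 33 genes of elongation, termination and cleavage 16 fell and 8 rose, with a median of −0.11 (8 and 7, median 0.02, after the correction). Falls were 32.8% and rises 21.1% of all genes tested (20.5% and 24.3% after the correction). PPP1R10 (PNUTS), which directs the phosphatase PP1 to the transcription machinery at termination, was at 4.25, 3.702 and 3.84 FPKM in 2DG plus phenformin, against 13.9, 14.2 and 15.3 FPKM in DMSO (log2 −1.85 ± 0.05; adjusted p = 4.35e-12). PCF11, a subunit of the cleavage complex, was at 3.29, 3.55 and 3.42 FPKM in 2DG plus phenformin, against 10.7, 10.6 and 9.62 FPKM in DMSO (log2 −1.56 ± 0.07). HEXIM1, which holds the elongation factor P-TEFb inactive, was at 3.43, 2.85 and 3.405 FPKM in 2DG plus phenformin, against 7.301, 7.05 and 7.31 FPKM in DMSO. These 3 genes did not stand alike against 2DG alone. HEXIM1 was at 6.92, 7.19 and 7.42 FPKM in 2DG alone, and the log2 difference of the combination from it was −1.13 for HEXIM1 (adjusted p = 1.76e-08), 0.34 for PPP1R10 (adjusted p = 0.00068) and −0.15, which did not pass, for PCF11 (adjusted p = 0.244).

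Of 27 regulators of mRNA decay 16 fell and 6 rose, with a median of −0.34 (14 and 5, median −0.14, after the correction). ZFP36L1, which brings the decay machinery to AU-rich messages, was the member with the smallest p and rose, to 58.7, 59.1 and 59.2 FPKM in 2DG plus phenformin, against 16.7, 16.8 and 16.8 FPKM in DMSO (log2 1.81 ± 0.04; adjusted p = 5.36e-13). PNRC2, a decapping cofactor, was at 15.4, 15.4 and 16.1 FPKM in 2DG plus phenformin, against 42.1, 39.95 and 38.2 FPKM in DMSO, and PDCD4, a translation inhibitor, fell by 1.08. Of 21 splicing factors of the SR family and CLK kinases 7 rose and 7 fell (13 and 4 after the correction): TRA2B (−0.78) and TRA2A (−0.71) fell and SRSF4 rose by 0.36. Before the correction 21.1% of all genes tested rose and 32.8% fell, and the falls among the splicing factors were near that share. A group of antiviral genes was seen among the calls, chosen after their values were seen. ZC3HAV1, which marks CpG-rich viral RNA for decay, was at 6.07, 6.45 and 6.53 FPKM in 2DG plus phenformin, against 18.1, 17.5 and 17.3 FPKM in DMSO (log2 −1.46 ± 0.04; adjusted p = 4.35e-12), and IFIT2 (−1.05) and SAMD9 (−1.03) fell as well.

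Of 33 initiation and elongation factors 17 rose and 3 fell, with a median of 0.11 (25 and 2, median 0.20, after the correction). EIF4B rose by 0.28 and EIF3C, which has a near-identical copy in the genome, by 0.35. EIF5, the GTPase-activating protein of the initiation complex, was among the 3 that fell, at 15.7, 15.9 and 15.5 FPKM in 2DG plus phenformin, against 46.3, 44.01 and 42.4 FPKM in DMSO (log2 −1.49 ± 0.06; adjusted p = 2.44e-10), and its difference from 2DG alone was −1.005 (adjusted p = 5.07e-08). Of 82 genes of cytosolic ribosomal proteins 54 rose and 2 fell, with a median of 0.22 (71 and 0, median 0.28, after the correction). All genes tested had 21.1% rises and 32.8% falls (24.3% and 20.5% after the correction). RPL14 was at 77.03, 75.04 and 75.9 FPKM in 2DG plus phenformin, against 58.5, 59.3 and 64.5 FPKM in DMSO, and RPL12 (0.28) and RPL22L1 (0.52) rose as well. The falls were those of RPL7L1 (−0.27) and RPS27L (−0.25), of which neither passed after the correction and the second changed sign (0.0053).

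Among kinases and sensors of energy and nutrients 16 of 31 rose and 7 fell (14 and 8 after the correction). SGK1, a kinase downstream of PI3K, was at 5.37, 5.11 and 5.29 FPKM in 2DG plus phenformin, against 2.14, 2.27 and 2.19 FPKM in DMSO, the insulin receptor substrate gene IRS2 rose by 1.14, and EIF4EBP2, an inhibitor of cap-dependent translation, fell by 0.94. Of 21 genes of growth arrest and p53 targets 4 rose and 10 fell (6 and 10 after the correction). GADD45A, a stress sensor, was at 30.2, 31.7 and 29.5 FPKM in 2DG plus phenformin, against 11.04, 9.97 and 9.72 FPKM in DMSO, while the antiproliferative BTG2 fell by 1.60, with 0.264, 0.175 and 0.153 FPKM in 2DG plus phenformin, against 0.7704, 0.793 and 0.807 FPKM in DMSO, and SESN1 fell by 0.86. In the BCL2 family 4 of 15 rose and 4 fell: PMAIP1 (NOXA), which promotes cell death, rose by 0.85, BCL2L11 (BIM) fell by 0.60, and the fall of BNIP3L (−0.35) did not pass after the correction. The family's counts are near those over all genes tested (21.1% and 32.8%), so only these single members are described.

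Of 11 genes of polyamine metabolism 5 rose and 3 fell (4 and 1 after the correction). The catabolic SAT1 was at 20.97, 20.5 and 21.7 FPKM in 2DG plus phenformin, against 9.51, 10.1 and 8.59 FPKM in DMSO, and SMOX, which oxidises spermine, rose by 1.36 with a wide spread in DMSO, while AMD1, of the synthetic branch, was at 12.4, 13.4 and 12.6 FPKM, against 27.3, 25.6 and 24.2 FPKM in DMSO (log2 −0.996 ± 0.07). The named genes of breakdown and synthesis thus moved in opposite directions. Of 21 NRF2 targets 7 rose and 10 fell (8 and 5 after the correction), with falls in GCLC (−0.75), which starts glutathione synthesis, in the cystine transporter gene SLC7A11 (−0.75) and in SRXN1 (−0.27). Of 25 genes of cholesterol and fatty acid synthesis 8 rose and 10 fell (5 and 6 after the correction). Before the correction 21.1% of all genes tested rose and 32.8% fell. The counts of the cholesterol and fatty acid genes are not far from these shares and are not read as a result about that list. INSIG1, which retains SREBP in the ER, was at 257, 269.7 and 249.6 FPKM in 2DG plus phenformin, against 123, 125 and 118 FPKM in DMSO, HMGCS1 fell by 0.61, and the fall of SCD (−0.20) did not pass after the correction.

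Of 15 clock genes 4 rose and 5 fell (5 and 5 after the correction), with BHLHE40 and NFIL3 (0.96) among the first and the repressor CRY1 (−0.57) among the second. These shares lie near the 21.1% and 32.8% of all genes tested and are no result about clock genes as a group. Of 26 genes of the cell cycle and DNA replication 10 rose and 9 fell (14 and 2 after the correction). The falls of this list before the correction were near the 32.8% of all genes tested. The cyclin CCNE2 fell by 0.50, and the falls of CCNB1 (−0.31) and CCNA2 (−0.32) did not pass after the correction. Of 15 housekeeping controls 5 rose and 1 fell (10 and 1 after the correction, with a median of 0.17, against −0.01 before it). GUSB rose by 0.28, and the rise of ACTB (0.35) and the fall of TBP (−0.32) did not pass after the correction, while ACTB reached 848, 793 and 905 FPKM in 2DG plus phenformin, against 664, 625 and 709 FPKM in DMSO. Of the 14 glial and mesenchymal markers 7 were tested, of which 6 rose and 0 fell (7 and 0 after the correction). SOX9, a transcription factor of neural stem cells, was at 35.97, 37.8 and 35.5 FPKM in 2DG plus phenformin, against 15.8, 17.7 and 16 FPKM in DMSO, and VIM (0.36) and FN1 (0.46) rose as well. The neural marker SNAP25, the member of the other list that was tested, did not pass (−0.31; adjusted p = 0.115).

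GC content went with the fold change over the whole table. The median log2 fold change was −0.29 for the 271 genes under 35% GC and −0.26 between 35% and 40%, crossed 0 between 45% and 55%, and was 0.66 between 60% and 65% and 0.84 for the 264 genes from 65%. Against 2DG alone, whose libraries had slopes of 0.131, 0.289 and 0.274, the same medians lay between −0.15 and 0.01. The genes that rose had a median GC content of 56.4% and those that fell 41.8%. GC content also differed between the lists: its median was 54.3% in immediate early genes, 42.7% in zinc finger genes, 43.1% in genes of mitochondrial transcription and 42.2% in regulators of mRNA decay. Its part in the results was not tested apart from the correction. After it, 6 of the 10 largest rises were larger than before, with SPRY2 at 2.80, KLF6 at 2.44, SLC16A6 at 2.68 and RND3 at 2.56, beside AC012181.2 and BHLHE40. The other 4 were smaller, with GDF15 at 3.04, MT1X at 2.45 and EGR1 at 1.75, beside PPP1R15A. Of the 10 largest falls 9 were smaller in size after it, such as ZNF547 at −2.13, ZBED8 at −1.77 and MT-ND6 at −1.41, and 1 was larger, PPP1R10 at −2.01.

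**Figure D5:**
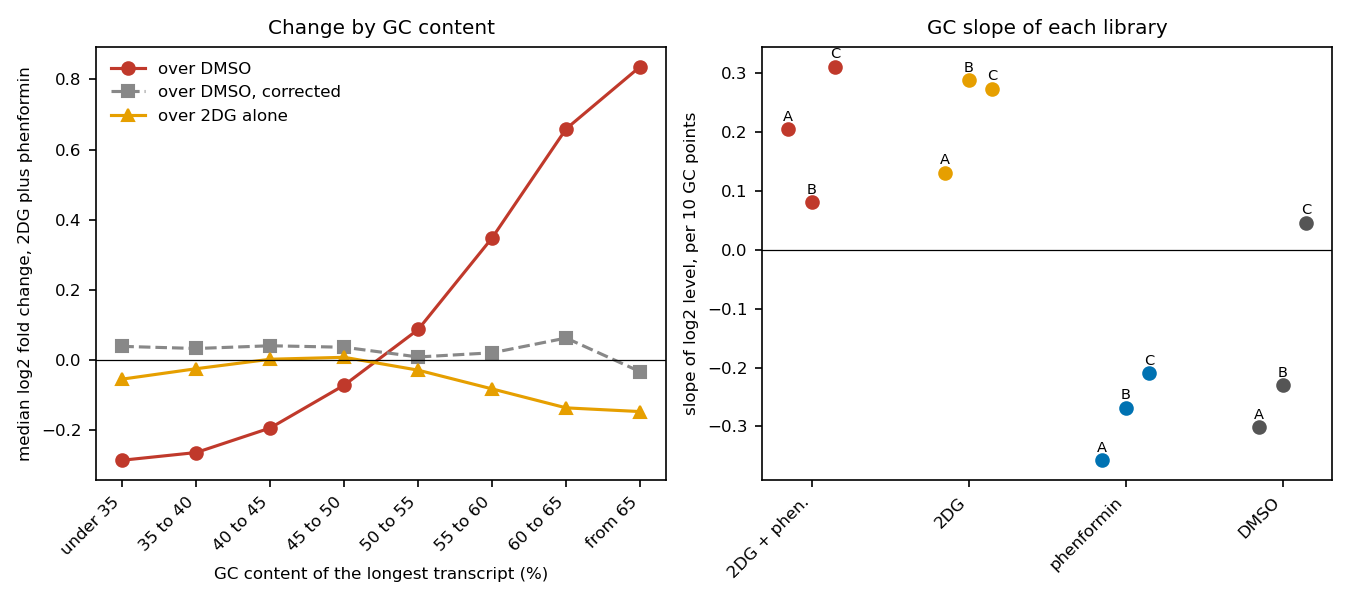
Left, the median log2 fold change of genes binned by the GC content of their longest transcript, for 2DG plus phenformin over DMSO before and after the correction and over 2DG alone; right, the GC slope of each library (log2 level per 10 GC points), labelled by replicate. The uncorrected medians over DMSO climb between −0.29 and 0.84, those over 2DG alone lie between −0.15 and 0.01, and DMSO C sits at 0.0467 while DMSO A and B sit at −0.301 and −0.229.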

How the data were processed

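Polyadenylated RNA of T98G cells was sequenced as stranded, paired-end libraries. By the study's methods, reads went through CLC Genomics Workbench version 11 against GRCh38 with annotation from Ensembl release 89 and strand taken into account, and the authors deposited FPKM, which scale a gene's fragments by exon length and library total. The members and gene lists were chosen with earlier results of these data known. All 18 libraries entered 1 limma model (version 3.58.1, R version 4.3.3) of log2(FPKM + 0.1) with a trend, 6 groups and 12 residual degrees of freedom, so fold changes are on that scale and understate the change of low genes. The filter was an FPKM of at least 0.5 in 3 libraries. Whole fragments were recovered for 25152 of 25158 genes above 0, at a tolerance of 0.001, and served as a check with precision weights. Library depths were 18417756 to 22497604 fragments. Replicate pairs differed by more than sampling noise, and p-values measure only the spread between these samples, which may be technical. The comparisons of 2DG plus phenformin with DMSO, 2DG and phenformin share its 3 libraries. GC content and length came from GENCODE 44 for 12022 of the tested genes (99.3%), and start sites from RefSeq.

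Named genes are GDF15, SPRY2, KLF6 and SLC16A6, the 10 largest rises and the 10 largest falls among called genes whose libraries did not overlap, and in each list up to 3 members that passed with the smallest p (up to 3 in each direction for zinc finger and ribosomal protein genes). Names outside the rule are marked in the text. 1 gene that the rule names is not reported here. Alternatives were other scalings, pseudocounts, filters, a GC and length correction, a replicate block, only the groups compared, and leaving out libraries. Figures were drawn with matplotlib version 3.10.9.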

Additional observations from a re-analysis of the deposited data

How the results depend on the processing

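The count of genes that fell was 2480 with the GC and length correction in place of 3973, and genes called lower were 58 with it, 23 with a pseudocount of 1, 31 with only the compared groups in the fit and 59 with the replicate block and the correction together, in place of 110. Genes called higher were 104 without DMSO C and GH plus phenformin A together, in place of 56. The comparison with 2DG gave 2042 genes without those libraries and 2375 with the block and the correction together, in place of 1358. Leaving out 1 of the 6 libraries gave 1079 to 3325 genes that rose, 3101 to 4227 that fell, 51 to 60 called higher and 93 to 125 called lower. Leaving out 1 of the 3 combination libraries, or 1 of the 3 of 2DG or phenformin (chosen after seeing the data), gave 965 to 1087 that differed from 2DG (1358 with all libraries) and 6393 to 7777 that differed from phenformin (7918 with all). Of the called genes 33.7% were called higher. This share was 43.9% with median-of-ratios scaling, 51.7% with the correction, 56.3% with only the compared groups and 65.2% with a pseudocount of 1. Rises made up 39.1% of genes that changed, 53.6% with median-of-ratios scaling and 54.3% with the correction. The causes were not tested.

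Of the 131 named genes, 4 changed sign with the correction, alone or with the block: RPS27L to 0.0053, CHAC1 to −0.11, TRIB3 to −0.37 and HERPUD1 to 0.062, of which only RPS27L had passed before. A further 15 no longer passed at an adjusted p under 0.05 with it. No named gene ceased to pass at that level when 1 of the 6 libraries was left out. Calls by fold and Bonferroni p were less stable: 50 to 55 of the 56 higher and 88 to 103 of the 110 lower calls were kept, and of 61 named genes with a call 1 to 5 lost it, among them MT1X without combination A or C or DMSO B, and PSMD6-AS2 on leaving out any library but combination B. The deviations of same-lettered libraries correlated at −0.0021 for A, 0.286 for B and 0.48 for C. Those of libraries with different letters correlated between −0.481 and 0.381, so these values do not settle whether the letters pair the samples. With the letter as a block 3253 genes rose and 4362 fell, and 62 were called higher and 110 lower. Depth limits low genes such as CHAC1, at 2 to 8 fragments in these 6 libraries.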

Other observations

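Some of the largest fitted changes lay outside the calls, in loci that share sequence with others. CBSL, a near-identical copy of CBS, was at 0.0357, 0 and 0.0231 FPKM in 2DG plus phenformin, against 2.75, 2.11 and 0.609 FPKM in DMSO (limma adjusted p = 0.0225), and at 2.58, 0.0253 and 0.0122 FPKM in 2DG alone. In fragments this is 3, 0 and 2 in the combination, 202, 2 and 1 in 2DG alone and 227, 165 and 49 fragments in DMSO, so that 1 library of 2DG alone lay apart from its replicates. The read-through locus NME1-NME2 was at 43.97, 34.1 and 54.3 FPKM in 2DG plus phenformin, against 0, 12.5 and 33.1 FPKM in DMSO, where no replicate was near another (limma adjusted p = 0.0762). Both loci were chosen after their values were seen, and how fragments were shared between copies was not tested.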
